A study of Mus musculus with 16 samples.

Results

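The Dlk1-Dio3 domain is a cluster of imprinted genes on mouse chromosome 12. Its 6 members studied here, the protein-coding genes Dlk1, Rtl1 and Dio3 and the long non-coding RNAs Meg3, Rian and Mirg, were taken by symbol from a table of 54453 genes, and all 6 were found. They were measured in 16 immortalised mouse embryonic fibroblast (MEF) lines by total RNA-sequencing. MEF-1 came from a male and MEF-2 from a female sibling embryo of the inbred strain C57BL/6J at E13.5, midgestation, and cells of both were immortalised by serial passaging. From each parental line, 7 clonal lines were grown from single sorted cells, without further treatment, which gives 4 groups (MEF-1 parental, 1 line; MEF-1 clonal, 7 lines; MEF-2 parental, 1 line; MEF-2 clonal, 7 lines) with 1 library per line. The clonal lines of a set all descend from 1 embryo, so that p-values measure the spread between clones, and differences of embryo, sex, karyotype and culture history between the sets cannot be told apart.

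As background, imprinted genes are expressed mainly from the chromosome inherited from 1 parent. In this domain Dlk1, Rtl1 and Dio3 are known as genes of the paternal chromosome and Meg3, Rian and Mirg as genes of the maternal chromosome, under the control of an intergenic region that carries DNA methylation on the paternal chromosome. As both embryos were of an inbred strain, the parental origin of a transcript was not measured here. The values are regularised log (rlog) values on the log2 scale, in which the deviation of a line from the average of its gene is shrunken, most strongly for genes with few reads. They are not scaled by transcript length, so levels are compared between lines and not between genes, and the number of reads behind them is unknown. In bulk RNA, fewer expressing cells and less RNA per cell cannot be told apart.

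Across the region from the start of Dlk1 to the end of Dio3 (chr12:109452823-110281097, mm10, 828.3 kb), 118 genes are annotated, of which 116 were in the table. Of these, 92 were listed at 0 in every line, 12 had an average above 0 and 12 an average below 0. The region holds 67 microRNA genes, of which 63 were listed at 0, and 23 small nucleolar RNA genes, of which 22 were listed at 0, and the remaining 4 and 1 had averages below 0, so the small RNAs are described here through the long transcripts that contain or neighbour them.

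The most marked pattern was in the non-coding RNAs. Meg3, Rian and Mirg were high in both parental lines and in all 7 MEF-2 clonal lines, and stood 4.15 or more below the parental line in all 7 MEF-1 clonal lines. Dlk1, on the other hand, was higher in the MEF-1 clonal lines than in the MEF-2 clonal lines, and Rtl1 and Dio3 overlapped between the sets. Among the 6 members, 4 differed between the 7 MEF-1 and 7 MEF-2 clonal lines (limma with Benjamini-Hochberg adjustment, adjusted p under 0.05), 1 higher and 3 lower in MEF-1. In the same fit 48.3% of the 21313 genes tested differed, 25.7% higher and 22.6% lower in MEF-1, so that a call by itself does not set the members apart, and their differences are described by size.

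**Figure D1:**
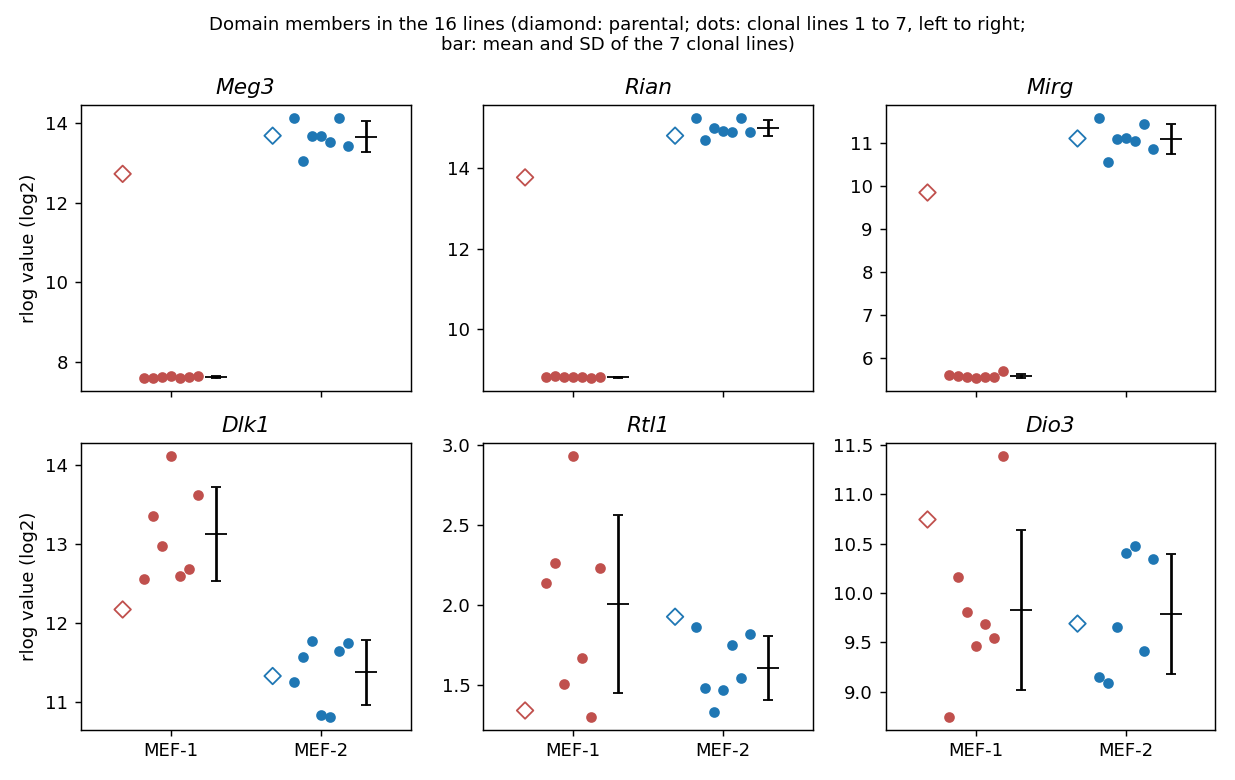
rlog values (log2) of the 6 members in MEF-1 (red) and MEF-2 (blue), with the parental line as a diamond, the clonal lines 1 to 7 as dots and their mean and SD as a bar, each panel with its own vertical axis. Meg3, Rian and Mirg lie between 5.54 and 8.84 in the MEF-1 clonal lines and between 10.55 and 15.24 in the MEF-2 clonal lines, while Dlk1 is higher in the MEF-1 clonal lines.

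Meg3 (ENSMUSG00000021268, plus strand, chr12:109541001-109571726) is a long non-coding RNA transcribed from a promoter downstream of the intergenic control region. The 7 MEF-1 clonal lines had rlog values of 7.60, 7.60, 7.62, 7.64, 7.60, 7.62 and 7.66, and their parental line had 12.73. The 7 MEF-2 clonal lines had 14.15, 13.06, 13.69, 13.68, 13.52, 14.14 and 13.45, with 13.69 in their parental line. All MEF-1 clonal lines were thus far below the lowest MEF-2 clonal line, with a gap of 5.41 between the sets, and the MEF-1 parental line was on the side of MEF-2. The difference of the clonal means, MEF-1 minus MEF-2, was -6.05 (SE 0.13, n = 7 and 7 lines, limma adjusted p = 3.76e-14).

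Rian (ENSMUSG00000097451, plus strand, chr12:109603940-109661716) hosts a cluster of small nucleolar RNAs in its introns. It was at 8.82, 8.84, 8.81, 8.82, 8.81, 8.79 and 8.82 in the MEF-1 clonal lines and at 13.76 in their parental line. In the MEF-2 clonal lines it was at 15.24, 14.70, 14.98, 14.92, 14.89, 15.22 and 14.88, and at 14.79 in their parental line. The separation was that of Meg3, with the MEF-1 clonal lines apart from the 9 other lines. The difference was -6.16 (SE 0.073, n = 7 and 7 lines, limma adjusted p = 1.33e-17).

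Mirg (ENSMUSG00000097391, plus strand, chr12:109729764-109749460) contains a large cluster of microRNAs. It was at 5.60, 5.57, 5.56, 5.54, 5.57, 5.57 and 5.69 in the MEF-1 clonal lines, against 9.84 in the MEF-1 parental line. It was at 11.58, 10.55, 11.08, 11.11, 11.04, 11.43 and 10.85 in the MEF-2 clonal lines, against 11.10 in the MEF-2 parental line. The sets did not overlap, and the difference was -5.51 (SE 0.13, n = 7 and 7 lines, limma adjusted p = 6.23e-14). For a single gene the exact permutation test of 7 against 7 lines cannot go below p = 0.000583 (two-sided), and Meg3, Rian, Mirg and Dlk1 each reached this value. Without overlap between the sets were 21.3% of all genes tested.

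The transcripts between Rian and Mirg moved with them. Gm37899 (chr12:109668869-109677585) had values of 4.54 to 4.68 in MEF-1 and 8.99 to 10.36 in MEF-2 clonal lines, with 8.61 and 9.96 in the parental lines. B830012L14Rik (chr12:109695586-109702587), a long intergenic non-coding RNA, ranged from 4.59 to 4.81 and from 9.08 to 10.41, with 8.65 and 9.97 in the parental lines. Both are on the plus strand like Meg3, Rian and Mirg, and their differences were -5.11 (limma adjusted p = 3.14e-12) and -5.13 (limma adjusted p = 1.91e-12). Among all 21313 genes tested, 12 (0.0563%) were lower in the MEF-1 clonal lines by 5 or more, a limit chosen after the values were seen. Of these 12, 5 were the transcripts above, 7 lay outside the domain, 2 of them on a sex chromosome, and none of the 7 was elsewhere on chromosome 12. Ranked from the lowest difference, Rian was 3, Meg3 4 and Mirg 6. The count of 5 depends on the values as deposited, since after the subtraction of the chromosome median described further on 2 of them, Meg3 and Rian, were still lower by 5 or more, with Mirg at -4.86, B830012L14Rik at -4.49 and Gm37899 at -4.46, and with the parental lines added Mirg was at -4.97.

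How low the transcripts are in the MEF-1 clonal lines cannot be read from the values alone, since rlog values of a line with few or no reads are drawn towards the average of the gene. The spread between lines gives a description of this. Over the 7 MEF-1 clonal lines the SD was 0.022 for Meg3, 0.013 for Rian and 0.051 for Mirg, below that of all but 0.131%, 0.0798% and 0.877% of the genes tested. In the MEF-2 clonal lines the SDs were 0.38, 0.19 and 0.34, at the percentiles 84.7, 50.8 and 80.6. Each library also gives a common lowest value to genes without reads, taken as the median of 2855 genes with an average below -2.2. Over the 7 MEF-1 clonal lines Gm37899 followed this lowest value with Pearson's r = 0.9997 (Spearman's rho = 1.00) and B830012L14Rik with r = 0.92 (rho = 1.00). For Meg3, Rian and Mirg r was 0.61, 0.086 and 0.017, over ranges of 0.16 or less. The fitted differences, p-values and ranks of these transcripts rest on such near-constant, shrunken values in MEF-1.

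Dlk1 (ENSMUSG00000040856, plus strand, chr12:109452823-109463336) encodes a transmembrane protein with epidermal growth factor-like repeats, known as an inhibitor of adipocyte differentiation and as an atypical ligand of Notch receptors. It was at 12.55, 13.35, 12.98, 14.11, 12.60, 12.69 and 13.62 in the MEF-1 clonal lines and at 12.17 in their parental line. In the MEF-2 clonal lines it was at 11.26, 11.57, 11.77, 10.84, 10.81, 11.64 and 11.74, and at 11.33 in their parental line. The lowest MEF-1 clonal line was 0.78 above the highest MEF-2 clonal line, and the MEF-1 parental line lay between the sets. The clonal means were 13.13 ± 0.59 (SD, n = 7) and 11.38 ± 0.41 (SD, n = 7), a difference of 1.75 (SE 0.24, limma adjusted p = 3.13e-05).

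The promoters of Dlk1, Meg3 and Rian are shown because these genes stand on the opposite sides of the comparison. Each window covers 250 bases before and 50 after the RefSeq start on GRCm38.p6, 5′ to 3′ on the plus strand, with the hexamer TGCCGC, whose methylated form is the recognition sequence of the imprinting factor ZFP57, in capitals on either strand. For Meg3 the first of 2 starts is given.
Dlk1, chr12:109452573-109452872: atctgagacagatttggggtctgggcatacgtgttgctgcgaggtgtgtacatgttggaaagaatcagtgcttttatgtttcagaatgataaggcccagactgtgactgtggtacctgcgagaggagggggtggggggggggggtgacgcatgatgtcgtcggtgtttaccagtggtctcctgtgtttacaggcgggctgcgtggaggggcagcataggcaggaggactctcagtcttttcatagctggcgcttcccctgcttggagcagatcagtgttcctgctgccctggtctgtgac
Meg3, chr12:109540746-109541045: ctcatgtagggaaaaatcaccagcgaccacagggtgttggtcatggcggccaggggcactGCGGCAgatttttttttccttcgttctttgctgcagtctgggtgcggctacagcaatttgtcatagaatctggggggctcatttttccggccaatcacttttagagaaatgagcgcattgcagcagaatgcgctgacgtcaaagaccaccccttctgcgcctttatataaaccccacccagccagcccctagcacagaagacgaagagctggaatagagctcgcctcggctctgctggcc
Rian, chr12:109603695-109603994: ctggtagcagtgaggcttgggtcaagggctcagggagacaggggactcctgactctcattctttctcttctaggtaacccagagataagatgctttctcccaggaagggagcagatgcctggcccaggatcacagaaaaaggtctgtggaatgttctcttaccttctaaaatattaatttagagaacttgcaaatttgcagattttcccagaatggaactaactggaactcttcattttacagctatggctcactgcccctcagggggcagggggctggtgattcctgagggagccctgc
The window of Meg3 held the hexamer 1 time, on the minus strand as GCGGCA, and those of Dlk1 and Rian held none. Of 32851 RefSeq promoter windows of this length 11.6% held it. The CpG count was 9 in the window of Dlk1, 13 in that of Meg3 and 0 in that of Rian, against a median of 7 over all windows. The windows of Mirg and Dio3 held 10 and 25 CpGs and neither held the hexamer, and Rtl1 had no entry. The window of Mirg (chr12:109734731-109735030) belongs to a RefSeq start inside the gene, downstream of the gene start given above. Methylation of the promoter windows was not analysed here.

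Rtl1 (ENSMUSG00000085925, minus strand, chr12:109589193-109600330) is a gene derived from a retrotransposon, known for its role in the placenta. It was at 2.14, 2.26, 1.502, 2.93, 1.67, 1.30 and 2.23 in the MEF-1 clonal lines and at 1.34 in their parental line. It was at 1.86, 1.48, 1.33, 1.47, 1.75, 1.54 and 1.81 in the MEF-2 clonal lines and at 1.93 in their parental line. The sets overlapped, with MEF-1 clonal line 6 the lowest and MEF-1 clonal line 4 the highest of the 14. The difference was 0.40 (SE 0.21, n = 7 and 7 lines, limma adjusted p = 0.126). Without MEF-1 clonal line 6 it was 0.52, with a limma adjusted p of 0.0396. The libraries were strand-specific, but whether the quantification used the strand is not given in the sources used here, so that reads of the transcripts opposite Rtl1 may enter its value.

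Rtl1 is known as a target of microRNAs encoded on the opposite strand of its own gene. RefSeq lists 58 microRNA hairpins in the region, of which 6 lie opposite Rtl1, 14 in Mirg, 3 in Rian and 1 in Meg3, all on the strand of the host in the last 3 cases, and 32 between the transcripts compared here. The 6 hairpins opposite Rtl1 give 11 mature microRNAs. Each of the 11 has a site of full complementarity in the coding sequence of Rtl1, which follows from its place on the strand opposite that sequence. One arm of each hairpin is shown, 5′ to 3′, with the seed (bases 2 to 8) in capitals.
miR-431-5p, chr12:109590459-109590479: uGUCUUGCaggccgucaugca
miR-433-3p, chr12:109591781-109591802: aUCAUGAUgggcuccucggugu
miR-127-3p, chr12:109592888-109592909: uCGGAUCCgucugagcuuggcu
miR-434-3p, chr12:109594565-109594586: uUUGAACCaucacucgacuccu
miR-432, chr12:109595006-109595028: uCUUGGAGuagaucagugggcag
miR-136-5p, chr12:109595331-109595352: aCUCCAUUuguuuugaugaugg
The 6 seeds differ from each other. Among the 113 distinct mature sequences of the region there were 104 seeds, and 9 of the seeds were shared by a pair of microRNAs, for example AUGUAAC by miR-379-3p and miR-411-3p. The mature microRNAs themselves were not measured.

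Dio3 (ENSMUSG00000075707, plus strand, chr12:110279068-110281097) encodes the type 3 deiodinase, which inactivates thyroid hormone. It was at 8.75, 10.16, 9.81, 9.46, 9.68, 9.54 and 11.39 in the MEF-1 clonal lines and at 10.74 in their parental line. In the MEF-2 clonal lines it was at 9.14, 9.09, 9.66, 10.40, 10.48, 9.42 and 10.35, and at 9.69 in their parental line. Both the lowest and the highest of the 14 values belonged to MEF-1, and the sets overlapped throughout. The difference was 0.036 (SE 0.34, n = 7 and 7 lines, limma adjusted p = 0.942), and its sign turned when any of 5 lines was left out. Within a set Dio3 was among the most variable genes, as its SD of 0.81 in MEF-1 and 0.61 in MEF-2 stood at the percentiles 96.7 and 94.3 of all genes tested. The SD in MEF-1 rests in part on line 7, as it was 0.47 over the 6 other lines. Dio3os (chr12:110275385-110278172), a non-coding RNA that starts close to Dio3 on the minus strand, had values of 7.85 to 9.78 in MEF-1 and 7.07 to 8.71 in MEF-2 clonal lines (difference 0.54, limma adjusted p = 0.171). After subtraction of the chromosome median, as below for the members, it was called higher in MEF-1, by 1.18 (limma adjusted p = 0.00703).

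The other 2 named transcripts of the region, Gm3379 (chr12:109894452-109895093), a processed pseudogene, and Gm34785 (chr12:110177956-110188061), a long intergenic non-coding RNA, are both on the minus strand between Mirg and Dio3. Gm3379 had a difference of -0.46 (limma adjusted p = 0.0381) and Gm34785 of 0.29 (limma adjusted p = 0.200), and both overlapped between the sets. Both calls changed when the chromosome median, described next, was subtracted, as Gm3379 was then at 0.18 (limma adjusted p = 0.391) and Gm34785 at 0.93 (limma adjusted p = 0.000596). The plot of the differences in genomic order shows the 5 low transcripts from Meg3 to Mirg, interrupted by Rtl1 on the opposite strand.

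The members lie on a chromosome that the study set aside in its methylation analyses as aneuploid in at least some lines, by DNA read coverage. Chromosome 12 coverage was lower in some or all MEF-1 lines than in the MEF-2 lines, and the study proposes a monosomy there. The part of such a loss in the levels of the members was not tested. The RNA level of chromosome 12 was compared between the sets. The median over 452 chromosome 12 genes outside the domain, each taken relative to its mean over the clonal lines and with each line centred on its autosomal median, was between -0.35 and -0.28 in the 7 MEF-1 clonal lines and between 0.29 and 0.33 in the 7 MEF-2 clonal lines. The difference was -0.63 (exact permutation test, two-sided, p = 0.000583, the smallest possible with 7 and 7 lines). The parental lines were at -0.066 and 0.27, so that the MEF-1 parental line lay between its clonal lines and those of MEF-2. Of 805 chromosome 12 genes tested, 59.3% were lower and 8.07% higher in MEF-1 (limma adjusted p under 0.05), with a median difference of -0.47 against 0.02 over all genes tested.

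When the median of its chromosome in each line, here without the autosomal centring (difference -0.64 for chromosome 12), was subtracted from each gene, 49.3% of 21275 genes differed, 27.6% higher and 21.8% lower in MEF-1, and 5 of the 6 members did. With the chromosome mean in place of the median this split turned to 22.4% higher and 27.8% lower. The differences of Meg3, Rian and Mirg remained large, at -5.41, -5.52 and -4.86 (limma adjusted p = 2.67e-13, 1.35e-16 and 5.82e-13). Dlk1 was higher by 2.39 (SE 0.25, limma adjusted p = 2.05e-06). Rtl1 was higher by 1.04 (SE 0.22, limma adjusted p = 0.00100), where it had overlapped before. Dio3 was at 0.68 (SE 0.35, limma adjusted p = 0.124), and at 0.86 with an adjusted p of 0.0481 without MEF-1 clonal line 1. The subtraction weighs on genes with low values. The 111 genes of chromosome 12 outside the domain with an average between 1 and 3, as for Rtl1 at 1.78, had a median difference of -0.12, against -0.61 for the 572 genes whose average was above the 40th percentile of protein-coding genes. The value of Rtl1 after subtraction therefore holds a larger correction than genes of its level showed. The subtraction also gives every gene the shift of its chromosome median. Whether that shift applies to imprinted genes, expressed mainly from the chromosome of 1 parent, was not tested. This limits the values of the members and of Dio3os after subtraction.

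**Figure D2:**
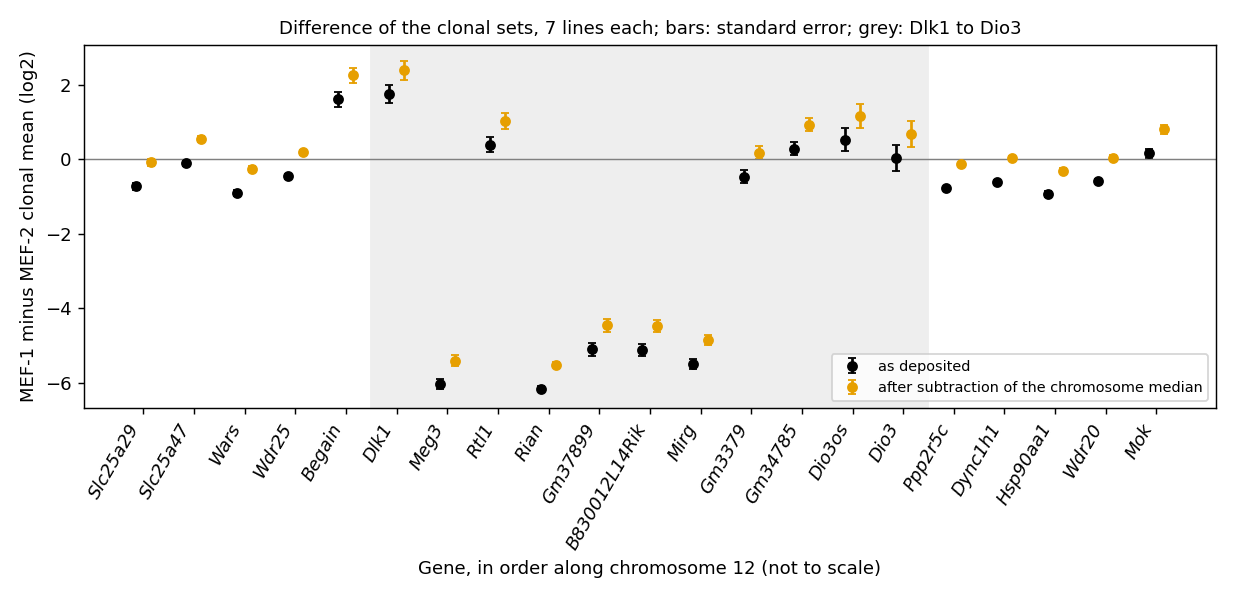
Difference of the clonal means, MEF-1 minus MEF-2 (log2), for the named genes from Slc25a29 to Mok in their order along chromosome 12, as deposited (black) and after subtraction of the chromosome median (orange), with the standard error as bars (7 and 7 lines) and the stretch from Dlk1 to Dio3 in grey. Meg3, Rian, Gm37899, B830012L14Rik and Mirg lie between -6.16 and -4.46 under both, while the flanking genes lie between -0.94 and 2.26.

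The 5 expressed protein-coding genes on either side of the domain give the local comparison. Upstream, Begain, the neighbour of Dlk1, was at 6.33, 7.31, 6.63, 7.14, 6.27, 6.04 and 7.14 in the MEF-1 clonal lines and at 5.07, 5.05, 4.85, 5.18, 5.28, 5.17 and 4.95 in the MEF-2 clonal lines, without overlap. Its difference was 1.62 (SE 0.19, limma adjusted p = 6.94e-06), the same direction as Dlk1. The parental lines differed less, at 6.53 and 6.30, and all 7 MEF-2 clonal lines were 1.02 to 1.46 below their parental line. Further upstream, Wdr25 (-0.45), Wars (-0.90) and Slc25a29 (-0.72) were lower in MEF-1, and Slc25a47 was not called (-0.09, limma adjusted p = 0.392). Downstream of Dio3, Ppp2r5c (-0.78), Dync1h1 (-0.61), Hsp90aa1 (-0.94) and Wdr20 (-0.59) were lower in MEF-1, and Mok was not called (0.17, limma adjusted p = 0.259). Of these 10 neighbours 7 were thus lower by 0.45 to 0.94, on the side of the chromosome 12 median, and Begain was the 1 that was higher. Of all chromosome 12 genes tested, 59.3% were lower and 8.07% higher, against 22.6% and 25.7% of all genes tested. After subtraction of the chromosome median, 4 of the 10 neighbours were higher, 3 lower and 3 not called. Of all genes tested, 27.6% were then higher and 21.8% lower. Wdr25 turned to 0.19 (limma adjusted p = 0.0418), and Slc25a47 (0.55, limma adjusted p = 0.000119) and Mok (0.81, limma adjusted p = 4.70e-05) were called higher. Slc25a29 (-0.08), Dync1h1 (0.03) and Wdr20 (0.05) were no longer called, and Begain was at 2.26.

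Each clonal line can also be held against the parental line it was grown from, as a description, since a parental line has 1 library. Meg3 was at 12.73 in the MEF-1 parental line and at most at 7.66 in its clonal lines, and the 7 lines lay 5.08 to 5.13 below it. For Rian the 7 lines lay 4.92 to 4.97 below it, and for Mirg 4.15 to 4.31. The MEF-2 clonal lines lay on both sides of their parental line for all 3, from 0.63 below to 0.48 above. Between the parental lines themselves, MEF-1 was lower than MEF-2 by 0.96 for Meg3, by 1.03 for Rian, by 1.26 for Mirg, by 1.36 for Gm37899 and by 1.31 for B830012L14Rik. Dlk1 stood above the parental line in all 7 MEF-1 clonal lines, by 0.38 to 1.94, and in 4 of 7 MEF-2 clonal lines. Dio3 was below the parental line in 6 of 7 MEF-1 clonal lines, and Rtl1 was above it in 6 of 7 MEF-1 and in 0 of 7 MEF-2 clonal lines.

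**Figure D3:**
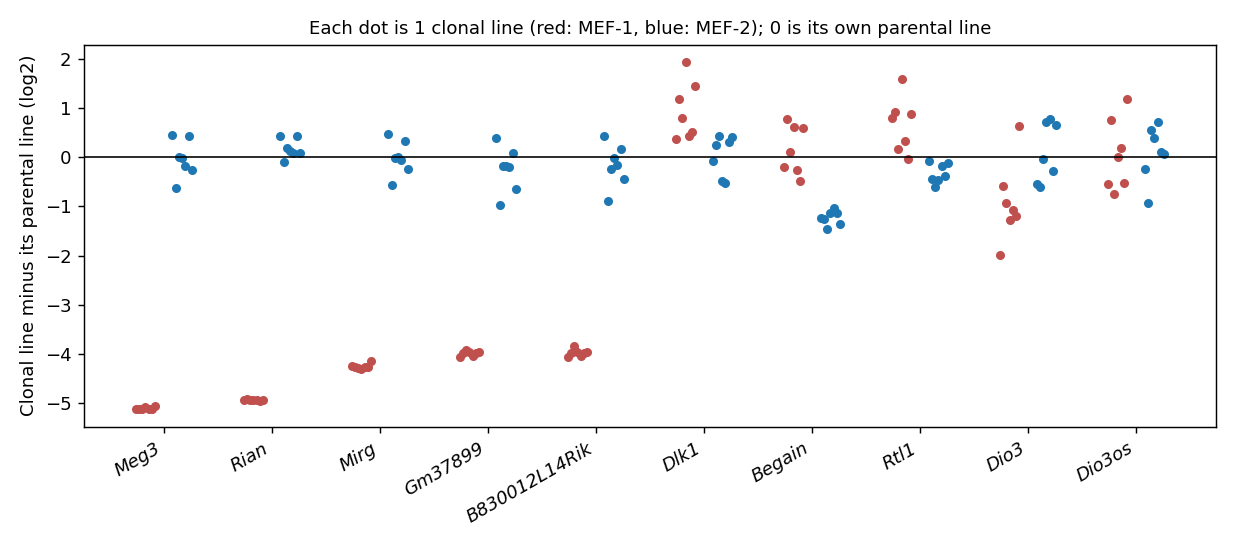
rlog value of each clonal line minus that of its own parental line (log2) for 10 genes of the region, with MEF-1 in red and MEF-2 in blue, 7 lines each. The MEF-1 clonal lines lie between 3.84 and 5.13 below their parental line for the 5 non-coding transcripts on the left, and the MEF-2 clonal lines within 0.97 of theirs.

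Among the MEF-2 clonal lines, the non-coding transcripts stood in a similar order of lines. Over the 7 lines, line 1 was highest and line 2 lowest for Meg3, Rian, Mirg, Gm37899 and B830012L14Rik alike. Pearson's r with Meg3 was 0.99 for Rian (Spearman's rho = 1.00) and 0.99 for Mirg (rho = 0.96), and 0.98 and 0.98 when lines 1 and 2, those farthest from the median, were left out. For Gm37899 r was 0.95 (rho = 1.00) and for B830012L14Rik 0.95 (rho = 0.89), and 0.84 and 0.87 without the same lines. Dlk1 with Meg3 had r = -0.05 (rho = 0.04) in these lines and 0.75 (rho = 0.71) in the MEF-1 clonal lines, where Meg3 covered a range of 0.059. These values share libraries and a scaling factor per library, and are given as a description.

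Among the MEF-1 clonal lines, lines 4, 7 and 2 were the 3 highest for Dlk1, for Begain and for Rtl1. Dlk1 had r = 0.86 with Begain (rho = 0.75), which was 0.93 without lines 4 and 7. Dlk1 had r = 0.80 with Rtl1 (rho = 0.64), which was 0.38 without lines 4 and 7 and so rests on them. Rian, over its range of 0.044, had r = 0.85 with Begain (rho = 0.96) and 0.72 with Rtl1 (rho = 0.93) in these lines. In the MEF-2 clonal lines Dlk1 had r = -0.78 with Begain (rho = -0.89), which was -0.50 without lines 4 and 5, and -0.22 with Rtl1 (rho = -0.25). Dio3 and Dio3os had r = 0.80 in MEF-1 (rho = 0.61) and 0.72 in MEF-2 (rho = 0.82), and both fell to 0.55 when the 2 lines farthest from the median were left out. The median of chromosome 18 was low in MEF-1 clonal lines 1, 4 and 5, at -0.47, -0.50 and -0.46. For Dlk1 line 4 was the highest and lines 5 and 1 the lowest, and the part of chromosome 18 in the order was not tested.

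**Figure D4:**
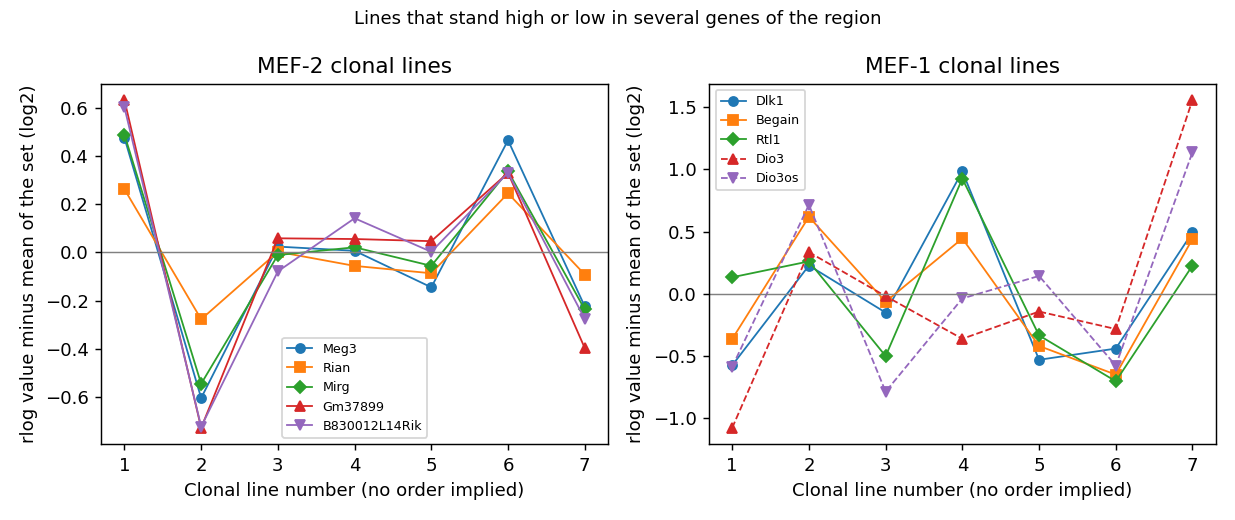
rlog values minus the mean of the 7 clonal lines of the set (log2) by clonal line number, for the non-coding transcripts in MEF-2 (left) and for Dlk1, Begain, Rtl1, Dio3 and Dio3os in MEF-1 (right). In MEF-2 line 1 is highest and line 2 lowest for all 5 transcripts, and in MEF-1 lines 2, 4 and 7 are above the mean for Dlk1, Begain and Rtl1.

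The genes outside the domain with the most similar pattern were sought over the 14 clonal lines after the mean of each set was removed. As 15702 genes were searched, the highest r can be large by chance alone. No chance level was computed, so the genes are named as a description. For Dlk1 the closest genes were Fam228b on chromosome 12 (r = 0.88), Zcchc4 (0.80) and Mtfr1l (0.79). For Meg3 they were Gm10642 (0.86), Gm37186 (0.86) and Gm43256 (0.83), and the same 3 genes came out for Rian (0.83, 0.90 and 0.89). For Mirg they were Gm37186 (0.88), Gm43365 (0.86) and Emc8 (0.85). As the MEF-1 clonal lines hardly varied in these transcripts, the likeness rests largely on MEF-2, and within MEF-1 r ranged in sign, from -0.92 for Gm10642 with Rian to 0.83 for Gm37186 with Rian. For Rtl1 they were Gm13608 (0.84), Btbd19 (0.84) and Gm11400 (0.83), and for Dio3 Pate2 (0.84), P2rx7 (0.83) and Ramp3 (0.81). For these 6 genes r was higher within MEF-1 than within MEF-2, as for P2rx7 with 0.97 and 0.51, and MEF-1 clonal line 7 stood highest for Dio3.

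Genes known to regulate imprinted loci, a list of 12 that were all tested, were lower in MEF-1 in 10 cases and higher in 1, with a median difference of -0.35. Over all genes tested, 22.6% were lower and 25.7% higher, with a median of 0.02. After subtraction of the chromosome median, 21.8% of all genes tested were lower and 27.6% higher. Of the 12, 8 were then lower, 1 was higher and 3 were not called. Of those without overlap, Ezh2 (-0.97) belongs to the Polycomb complex that methylates histone H3, Trim28 (-0.55) is the corepressor that zinc finger proteins such as ZFP57 recruit, and Aff3 (1.90) is a factor of transcriptional elongation that binds within this domain. Dnmt3a, a de novo DNA methyltransferase, was lower by 0.80, but it lies on chromosome 12 and was at -0.16 after subtraction of the chromosome median (limma adjusted p = 0.176).

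As Dlk1 acts on Notch signalling, 12 genes of this pathway were examined, of which 11 were tested, 3 higher, 3 lower and 5 not called, with a median of 0.09. This is close to the 48.3% called and the median of 0.02 over all genes tested. The ligand Dll1 was higher in MEF-1 by 3.41 and the receptor Notch2 by 0.40, and the target gene Hey1 was lower by 1.63, all without overlap and with a limma adjusted p under 0.05. Of 9 genes of thyroid hormone signalling, on which Dio3 acts, 8 were tested, 6 higher, 0 lower and 2 not called, with a median of 0.65, against 25.7% higher, 22.6% lower and a median of 0.02 over all genes tested. The receptor Thrb was higher by 3.07, the receptor partner Rxra by 0.92 and the corepressor Ncor1 by 0.22, without overlap. Dio2, the deiodinase that activates thyroid hormone, overlapped between the sets and was higher by 1.93 (limma adjusted p = 0.00218).

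Of 10 fibroblast markers, 9 had a clonal mean above the 40th percentile in both sets, with Col1a1 highest at an average of 20.88. The exception was Thy1, at 2.95 ± 0.23 (SD, n = 7) in MEF-1 and 5.54 ± 1.92 (SD, n = 7) in MEF-2, a difference of -2.59 (limma adjusted p = 0.00419). Of the 10, 4 were higher, 2 lower and 4 not called, against 48.3% called over all genes tested, and Dcn was higher by 4.74 without overlap. Of 4 muscle markers none had an average above 0. Of 4 neural markers only Tubb3 did, and it was lower in the MEF-1 clonal lines by 1.90 without overlap, with a summed level of the list on the log2 scale of 9.48 to 10.76 in MEF-1 and 11.66 to 12.96 in MEF-2. Above the 40th percentile were 1 of 5 epithelial, 1 of 4 endothelial, 2 of 4 blood and 1 of 4 adipocyte markers. Of these lists, Fabp4 of adipocytes was higher in MEF-1 by 1.38 (limma adjusted p = 0.00206) and Kdr of endothelium by 0.89 (limma adjusted p = 0.00419), and Csf1r of blood was lower, with a difference of -1.36 (limma adjusted p = 0.00652), each with overlap between the sets, and no other marker of them was called. The part of these differences in the levels of the domain was not tested.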

How the data were processed

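Total RNA of 16 lines was sequenced as ribosome-depleted, strand-specific paired-end libraries. The authors trimmed the reads (Trim Galore 0.6.0), quantified transcripts with Salmon 1.5.2 against mm10 with Ensembl release 102, and deposited log2 values made with the rlog transformation of DESeq2 1.24.0. How transcripts were summed into genes is not given in the sources used here. Gene identifiers were matched to GENCODE mouse release 21 (Ensembl release 96, mm10 coordinates). With 16 values per gene and no counts, depth is unknown.

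Genes with an average above 0 (21313) were fitted with limma 3.58.1 (R 4.3.3), 7 MEF-1 against 7 MEF-2 clonal lines, with a trended variance prior and calls at a Benjamini-Hochberg adjusted p under 0.05. The fit was repeated after subtraction, per line, of the median deviation of protein-coding genes of the same chromosome above the 40th percentile (3.80) of the average. The limma fit and the subtraction of the chromosome median were tested on simulated data, and the other computations were not. Alternatives are in the closing section. Sequences came from RefSeq (GRCm38.p6), which held promoter windows for 5 of the 6 members. Python 3.11.15 was used.

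The members and lists were chosen with earlier results of these data known. Named besides the members were the 5 other transcripts of the region with the highest average, the 5 nearest expressed protein-coding genes on each side, up to 4 called genes without overlap per list and the 3 genes with the highest r per member. Dio2 and the single cell type markers were named after their values were seen. Bisulfite sequencing and the knockout lines were not analysed here.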

Additional observations from a re-analysis of the deposited data

Results flagged for a closer look

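MEF-1 clonal line 7 stood apart from the other 6 for Mirg, at 5.69 against 5.60 for the next line. The gap was small in log2 units, but it made up 0.62 of the range of the 7 lines. Among 42 sets of 7 clonal lines examined, it was the only gap flagged as large relative to the range of its set. Chance flags about 1 in 20 sets, or 2.1 of the 42, so a single flagged set is not more than chance gives. Over the same lines Dio3 was also highest in line 7.

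Ppp2r5c, downstream of Dio3, was below the parental line in all 7 MEF-1 clonal lines (mean difference -0.15) and above it in all 7 MEF-2 clonal lines (mean difference 0.23). This difference between the sets was not tested. After subtraction of the chromosome 12 median, which as subtracted was -0.067 in the MEF-1 parental line and -0.32 on average in its clonal lines, 6 of 7 MEF-1 clonal lines were above their parental line for Ppp2r5c, as were all 7 of MEF-2.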

How the results depend on the processing

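The calls of Dlk1, Meg3, Rian and Mirg and their directions were the same under every alternative run (filters, variance priors, centring, parental lines added, chromosome references, each clonal line left out and the exact permutation test). With protein-coding genes only, Meg3, Rian and Mirg have no value. Adding the parental lines moved Meg3 to -5.41 and Rian to -5.52. With each clonal line left out in turn, Dlk1 ran from 1.59 to 1.85, Meg3 from -6.15 to -5.97, Rian from -6.21 to -6.12 and Mirg from -5.60 to -5.42. Rtl1 ran from 0.24 to 0.52 and was called only without MEF-1 clonal line 6 (adjusted p = 0.0396), and its adjusted p over all alternatives ran from 0.0396 to 0.274. Dio3 ran from -0.22 to 0.22 and changed sign without MEF-1 clonal line 2 (-0.019) or 7 (-0.22) and without MEF-2 clonal line 1 (-0.071), 2 (-0.081) or 6 (-0.026). After subtraction of the chromosome median, Dlk1 ran from 2.23 to 2.49, Meg3 from -5.51 to -5.33, Rtl1 from 0.88 to 1.16, Rian from -5.57 to -5.47, Mirg from -4.96 to -4.78 and Dio3 from 0.42 to 0.86, with Dio3 called only without MEF-1 clonal line 1 (adjusted p = 0.0481). With the mean in place of the median as chromosome reference, 4770 genes were higher and 5907 lower in MEF-1, against 5865 and 4633. Genes called numbered 10297, and 9529 to 10402 with a line left out. With clone number as a replicate block 9795 were called and no member changed its call (Dlk1 1.75, adjusted p = 0.000287). The numbers name different cells in the 2 sets, since each set was grown from its own parental line. Same-numbered lines correlated above 0.1 in 3 of 7 cases, and none was closest to its own number. Leaving the domain in the chromosome 12 median, or taking the mean, gave -0.63 and -0.60. Depth is unknown, so the size of a difference at low levels is limited by the shrinkage.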
